A study of Mus musculus with 18 samples.

Results

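A set of 108 genes had its highest expression at day 2 of differentiation in WT mouse embryonic stem cells (mESCs), out of 20703 genes measured by RNA-seq. The members were selected on the 6 WT libraries alone. A gene entered the set if its mean WT value at day 2 was at least 0.58 above both its day 0 and its day 4 means on the log2 scale of the variance stabilizing transformation (VST) that the authors deposited. Ribosomal protein and electron transport genes (symbols starting with Rpl, Rps, Mrp, Nduf or Cox) and Fgf5 were left out by symbol. This removed 7 of the 115 genes that met the threshold, namely Rpl13a, Rpl41, Rpl9, Rplp0, Rps14, Rps3 and Rps7-ps3. The rise and the fall of the members in WT are therefore given as a description, without a test.

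The cells were E14 mESCs, a line derived from mouse blastocysts. Groups were WT cells and Nsd1-KO cells, the latter from 2 clonal lines, KO-1 and KO-2, in which both alleles of Nsd1 had lost exon 5 by CRISPR editing. Nsd1 encodes a histone H3K36 methyltransferase. Each line was sampled at day 0, in medium with LIF on mouse embryonic fibroblast (MEF) feeders, and at day 2 and day 4 after LIF and feeders had been taken away, with 2 biological replicates per line and day. According to the methods of the study, the KO lines were made from mESCs that carried a 3×Flag tag on Nsd1. Each KO line is a single clone, so the 4 KO libraries of a day are 2 clones with 2 replicates each, and differences between clones enter their spread. Nothing in the labels says how far apart the replicates of a line were cultured, and p-values measure the spread between these libraries.

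The exit from naive pluripotency passes through a transient formative state, which resembles the epiblast shortly after implantation. In that state the de novo DNA methyltransferases and factors such as Otx2 and Pou3f1 are switched on while the naive network is switched off, and part of this programme is switched off again as cells take on germ layer fates. In mESCs the withdrawal of LIF starts this sequence.

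The depth ranged from 9309874 to 23921193 counts on genes, and its median was 15721348. Both WT libraries of day 2, the ones in which the members are high, were the shallowest of that day, with 9309874 and 9356867 counts, against 14595828 to 19445827 counts in the KO libraries of day 2. The part of this depth gap in the choice of the members was not tested. Values named normalized counts below are the counts behind the VST values divided by the size factors of the authors; they are not divided by transcript length and are compared only within a gene. Near the floor of the VST scale, which stands for a count of 0, differences are compressed, so log2 differences of low genes are smaller than the ratio of their counts.

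Nsd1 itself was checked first. It had 3374 and 3660 normalized counts in the WT libraries of day 0, 2773 and 3344 at day 2, and 2425 and 2111 at day 4. The KO libraries ranged from 634.9 to 836.7 at day 0, from 854.2 to 1024 at day 2 and from 575.4 to 1103 at day 4. All 12 KO libraries lay below all 6 WT libraries, as their labels say. The stem cell markers Pou5f1, Sox2, Nanog, Zfp42, Esrrb, Klf4, Tfcp2l1 and Dppa5a all had counts in every library, with sums of 76379 to 83559 normalized counts at day 0. At day 2 their sums were 22342 and 19503 in WT and 27387 to 34707 in KO. At day 4 they were 10069 and 10181 in WT and 20817 to 22876 in KO. The part of this difference in the values of the members was not tested. No member is among these markers.

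Markers of other cell types also moved with day and genotype. The summed normalized counts of 10 feeder fibroblast markers, of which Col1a1 was the most abundant, fell from 3387 and 3305 in WT at day 0 to 1352 and 1224 at day 2, and from 4984–5907 to 811.2–1041 in KO. At most 2 of these 10 markers were at 0 in any library. At day 4 the sums were 3054 and 2906 in WT and 1506 to 2395 in KO. The 6 primitive endoderm markers, led by Dab2 at day 2, summed to 730.0 and 737.5 in WT at day 2 and 230.7 to 291.9 in KO, and to 2628 and 2560 in WT at day 4 against 284.1 to 461.5 in KO, with at most 1 marker at 0. No feeder or primitive endoderm marker is a member, and the part of these cells in the values of the members was not tested. In bulk RNA, a change in the number of cells of a type and a change in RNA per cell cannot be told apart.

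In WT, the members rose by a median of 0.82 (0.58 to 3.57) from day 0 to day 2 and changed by a median of −0.86 (−2.79 to −0.58) from day 2 to day 4 on the log2 VST scale, values that the selection fixed. Their level at day 4 lay a median of 0.0010 from that at day 0, with 54 members above and 54 below. These differences ran from −1.20 in Foxd3 to 1.33 in Pou3f1, and Pim2, with 1.30, and Sall2 and Car4, both with 0.90, also stayed above day 0 at day 4. Taken alone, WT replicate 1 met the threshold for 96 of the 108 members and replicate 2 for 90, and 78 members met it in both. Just inside it were Cadm1 and Slitrk5, both with a peak of 0.58 above the nearer of the other days, and Prom2 with 0.59. Just outside were Septin3, Mid1ip1 and Polr1e, each with 0.58 after rounding.

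The KO libraries took no part in the selection, and their changes over time could be tested. In KO the members rose less from day 0 to day 2 and then hardly fell. From day 0 to day 2, the median change was 0.39 (−0.50 to 1.69), with 102 members above 0, beside a median of −0.0042 over all genes. limma called 38 members higher at day 2 (adjusted p under 0.01 by Benjamini-Hochberg over all genes and a log2 fold change over 0.58), whereas 1.43% of all genes were called higher. It called 0 members lower, beside 1.77% of all genes. By limma-voom 62 members were called higher, beside 7.14% of all genes. One member, AY036118, was lower at an unadjusted p under 0.05, and limma-voom on the counts called it, with 9.2% of all genes called lower. In 78 members every KO library of day 2 lay above every KO library of day 0, which held for 16.0% of all genes.

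From day 2 to day 4, the median change of the members in KO was −0.05 (−0.69 to 0.93), with 41 above and 67 below 0, and the median over all genes was −0.00087. limma called 4 members higher, Sall2, Pcdh1, Ptn and Syt11, where the background was 0.923%. It called 4 lower, Skil, Sesn3, Myrf and Gm38393, where the background was 0.565%. By limma-voom 10 were higher and 12 lower (5.59% and 4.75% of all genes). Without a fold threshold limma gave 12 and 21 (8.64% and 7.46%). Without replicate 1 of KO-2 at day 4, the fall of Myrf was the 1 called, and those of Skil (−0.57), Sesn3 (−0.55) and Gm38393 (−0.54) were under the fold threshold. In KO-1 alone these 3 falls, of −0.36, −0.42 and −0.46, were under it as well. Relative to day 0, 36 members were higher at day 4 in KO, beside 3.44% of all genes, and 1, AY036118, was lower, beside 3.06%. The call of AY036118 was lost without replicate 1 of KO-1 at day 0. Per member, the KO change was a median of 44.4% of the WT change from day 0 to day 2 (quartiles 19.4% and 65.5%) and 6.67% of the WT change from day 2 to day 4 (quartiles −12.3% and 20.2%). The WT changes in these shares are those that the selection set. With genes chosen on one WT replicate and the change of the other WT replicate in the share, the medians were 38.0% and 45.7% from day 0 to day 2 and 7.68% and 7.77% from day 2 to day 4, for genes chosen on replicate 1 (132 genes) and replicate 2 (114 genes) in turn.

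**Figure D1:**
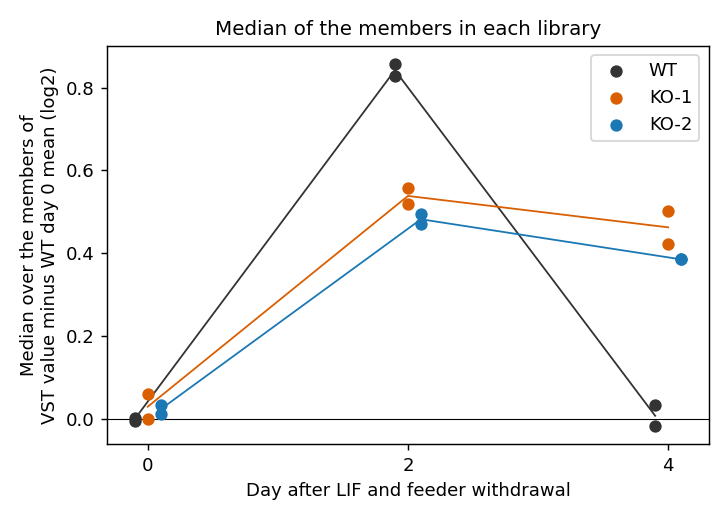
The median over the 108 members of the VST value minus the WT day 0 mean (y axis, log2) for each of the 18 libraries (points, by line) against day (x axis), with lines through the mean of each line. The WT libraries, which the selection used, sit at 0.83 and 0.86 at day 2 and at 0.03 and −0.02 at day 4, while the KO libraries sit at 0.47 to 0.56 at day 2 and 0.39 to 0.50 at day 4.

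The medians by library are given for each clone, and the difference between the clones in these medians was not tested. The KO libraries of day 2 had medians of 0.52 and 0.56 in KO-1 and 0.47 and 0.49 in KO-2, each below both WT libraries of that day. At day 4 they had 0.50 and 0.42 in KO-1 and 0.39 in both replicates of KO-2, each above both WT libraries. The highest of the 3 KO means fell on day 2 for 63 members, on day 4 for 41 and on day 0 for 4 (58.3%, 38.0% and 3.7%), beside 23.2%, 35.2% and 41.6% of all genes with unequal means. When the selection threshold was applied to the KO means, 2 of the 108 members met it, Skil and Sesn3, among 10 genes (0.0493% of the 20299 genes left after the symbols were dropped). The count was 11 on log2 normalized counts plus 1, 7 at a threshold of 0.40 and 0 without replicate 1 of KO-2 at day 4. In WT the rule itself held 2683 genes on that log2 scale and 326 at 0.40. The share of all genes that met it in KO under these settings is not given, so these counts are a description. In KO-1 alone the threshold was met by Mif, Ccno and Gfra1, among 15 genes. In KO-2 alone it was met by Dnmt3b, Skil, Sesn3 and Myrf, among 22 genes.

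**Figure D2:**
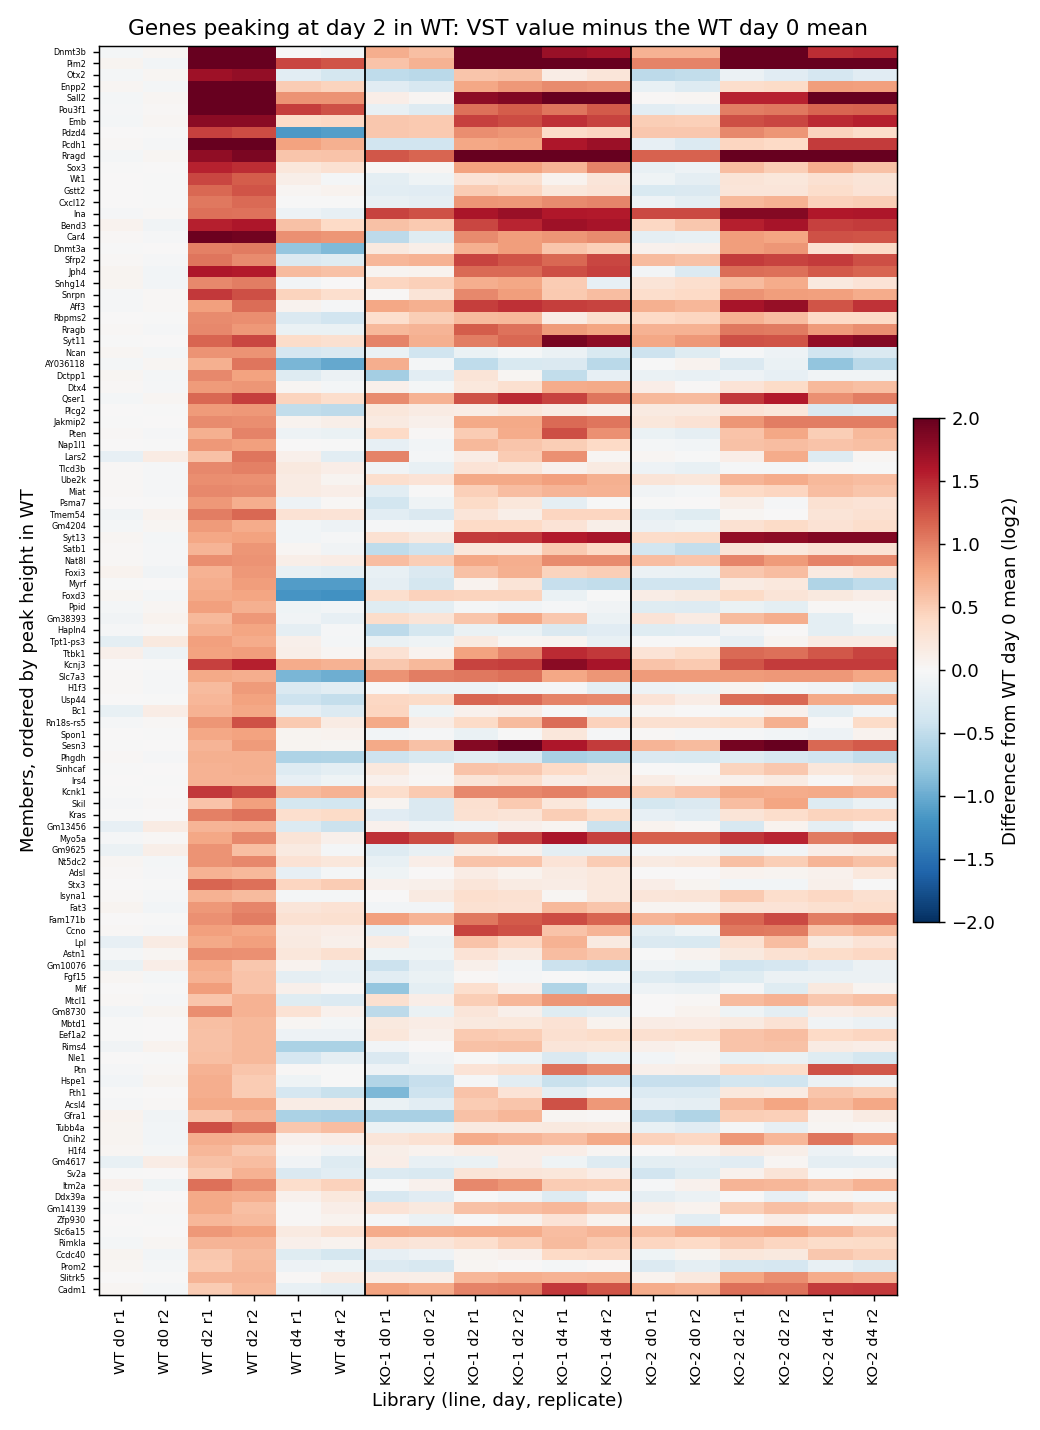
Heat map of the VST value minus the WT day 0 mean (colour, log2, colours end at −2 and 2) for the 108 members (rows, by peak height in WT) in the 18 libraries (columns, by line, day d and replicate r). In the WT columns red is deepest at day 2, as selected, while in both KO clones red at day 2 is paler in most rows and stays at day 4.

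**Figure D3:**
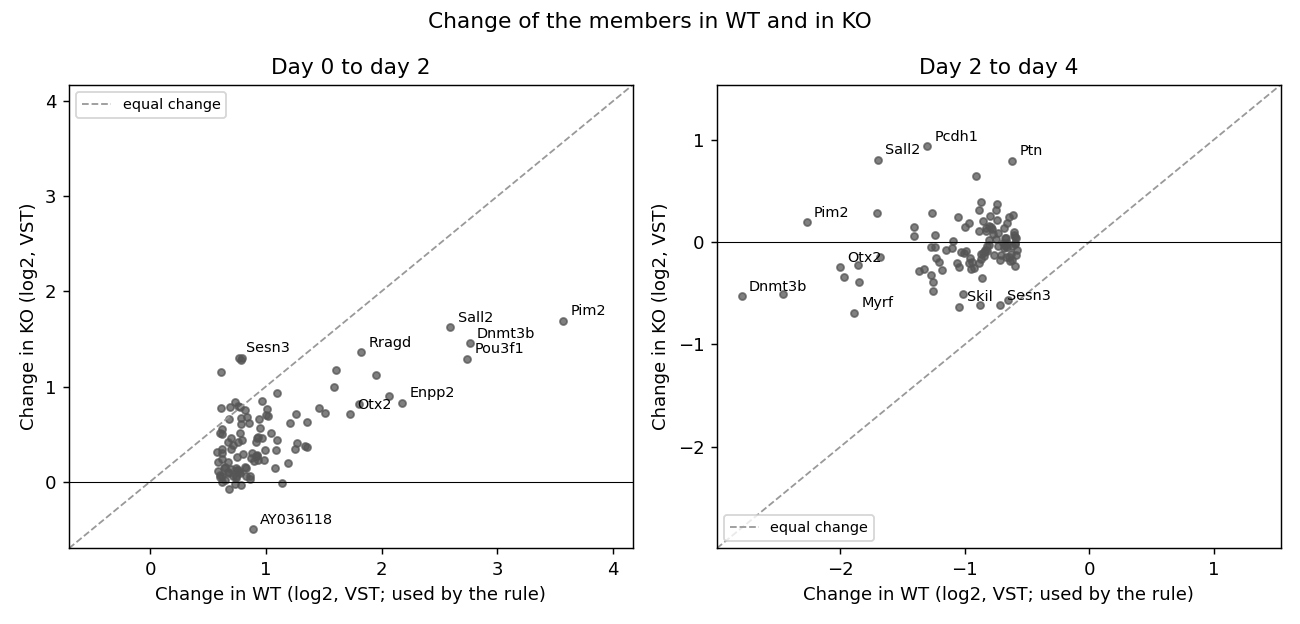
Change in KO (y axis) against change in WT (x axis) of each member, log2 VST, from day 0 to day 2 (left) and day 2 to day 4 (right), where the dashed line marks an equal change. On the left nearly all points lie above 0 and most below the dashed line, and on the right they spread around 0 in KO (median −0.05) at WT changes of −2.79 to −0.58.

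Since the WT libraries chose the members, KO against WT is a description for them. At day 0, 15 members were past the thresholds as higher in KO (background 1.73%) and 1, Gfra1, as lower (0.879%). limma-voom gave 22 higher and 6 lower (6.43% and 6.86%), limma without a fold threshold 27 and 13 (10.4% and 9.21%). In 41 members all KO libraries of day 0 lay above both WT libraries and in 32 all lay below, beside 23.1% and 24.3% of all genes. At day 2, 44 were lower (2.37%) and 5 higher (4.01%), namely Aff3, Syt13, Rragd, Sesn3 and Ina. At day 4, 42 were higher (3.67%) and 0 lower (3.91%) in limma, and 1 was lower in limma-voom (13%). At an unadjusted p under 0.05, 5 were lower, and the share of all genes at that p is not given. In 71 members all KO libraries of day 4 lay above both WT libraries and in 5 all lay below, beside 23.9% and 25.9% of all genes. The median difference of KO from WT was 0.03, −0.46 and 0.39 at day 0, 2 and 4.

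To test these differences on libraries that did not choose the genes, the same threshold was applied to the 3 libraries of one WT replicate, and the genes were compared between KO and the other WT replicate. This left 1 WT library per day, which limma assumes to vary like the other groups. Replicate 1 chose 132 genes and replicate 2 chose 114, of which 78 were shared (59.1% and 68.4% of the sets). Of the 132 genes, 54 were lower in KO at day 2 than in WT replicate 2, beside 1.88% of all genes, and 38 were higher at day 4, beside 3.62%. The change from day 0 to day 2 was lower in KO than in that replicate for 30 genes (background 0.85%), and the change from day 2 to day 4 was higher, that is a smaller fall, for 73 (1.75%). Of the 114 genes, compared with WT replicate 1, 37 were lower at day 2 (2.43%), 45 were higher at day 4 (3.41%), 27 had a lower change from day 0 to day 2 (0.855%) and 69 a higher change from day 2 to day 4 (1.89%). By limma-voom the lower change from day 0 to day 2 was called for 12 of the 132 and 17 of the 114 genes (background 0.401% and 0.725%), and the higher change from day 2 to day 4 for 76 and 62 (2.9% and 2.18%). In both directions of the exchange, more genes differed in the fall than in the rise, and the difference between these counts was not tested.

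The 3 highest peaks on the VST scale, those of Dnmt3b, Pim2 and Otx2, belong to genes of the formative state. Of a list of 23 formative epiblast genes, all measured, 8 are members, namely Dnmt3b, Pim2, Otx2, Sall2, Pou3f1, Sox3, Dnmt3a and Foxd3. In KO, 11 of the 23 rose from day 0 to day 2 and 1 fell, with a median change of 0.55, and from day 2 to day 4 Sall2 and Cdh2 rose and Dnmt3l fell, with a median of −0.02. The risers at day 2 were 7 of the 8 members, all but Foxd3, and Lin28a, Lin28b, Sox4 and Grhl2. Of 19 naive pluripotency genes, none a member, 15 fell and 0 rose from day 0 to day 2 in KO, with a median of −1.37.

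Dnmt3b (ENSMUSG00000027478), a de novo DNA methyltransferase, had the highest peak above the nearer of the other days on the VST scale. In WT it had 5743 and 6071 normalized counts at day 0, 42343 and 45174 at day 2, and 5919 and 5640 at day 4. In KO (here and below KO-1 replicates 1 and 2, then KO-2 replicates 1 and 2) it had 10153, 9240, 9898 and 9904 at day 0, 27528, 29324, 26765 and 28101 at day 2, and 21062, 20040, 17612 and 18055 at day 4. The KO libraries thus lay above WT at day 0 and day 4 and below it at day 2, without overlap at any day. Within KO, Dnmt3b rose by 1.45 ± 0.06 (log2, SE) from day 0 to day 2 (limma, adjusted p = 1.96e-13), and its change from day 2 to day 4, −0.53, did not reach the fold threshold. Dnmt3a, the other de novo enzyme, had 4594 and 4648 normalized counts at day 0 in WT, 9898 and 10127 at day 2, and 2444 and 2228 at day 4. Its KO values ranged from 4950 to 5394 at day 0, from 7946 to 9026 at day 2 and from 5848 to 7095 at day 4. Here the largest gap was at day 4, where all KO libraries exceeded the WT values of both day 4 and day 0.

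Otx2 (ENSMUSG00000021848), a homeobox factor of the early epiblast and forebrain, differed between the clones. Its WT values were 343 and 377 normalized counts at day 0, 2275 and 2415 at day 2, and 258 and 200.2 at day 4. In KO they were 146, 136, 142 and 149.6 at day 0, 738, 770.5, 300.4 and 251 at day 2, and 448, 501, 207 and 248 at day 4. Every KO library lay below WT at the first 2 time points, and the KO-1 libraries alone exceeded WT at day 4. At day 2, KO-1 exceeded KO-2 by 0.74 ± 0.06 (limma, adjusted p = 5.39e-07), and Otx2 was the single member that limma called between the clones at that day, where 0.0435% of all genes were. By limma-voom 4 members were called. With both clones pooled Otx2 rose by 0.71 ± 0.15 from day 0 to day 2 (limma, adjusted p = 0.00062), but in KO-2 alone its change of 0.33 missed the fold threshold.

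Pou3f1 (ENSMUSG00000090125), a POU factor also known as Oct6, reached 5645 and 5713 normalized counts in the WT libraries of day 2, from 394 and 414 at day 0, and had 1867 and 1685 at day 4. In KO it had 328, 269, 296 and 314 at day 0, 1433, 1586, 1323 and 1370 at day 2, and 1388, 1611, 1518 and 1530 at day 4. Pou3f1 thus rose in KO by 1.29 ± 0.05 (limma, adjusted p = 7.1e-14) to a plateau far below the WT peak. Sox3, a SoxB1 factor, had 112 and 121 normalized counts in the WT libraries of day 0, 1124 and 1054 at day 2, and 189 and 222 at day 4. In KO its values ran from 79.8 to 129 at day 0, from 303 to 476 at day 2 and from 354 to 609 at day 4. Its KO level at day 4 overlapped that of day 2 and lay above both WT libraries of day 4.

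Sall2 and Pcdh1 kept rising in KO. Sall2 (ENSMUSG00000049532), a zinc finger factor of the Spalt family, had 106 and 132 normalized counts in the WT libraries of day 0, 2799 and 3123 at day 2, and 545 and 546 at day 4. In KO it had 157, 131, 124 and 129 at day 0, 1446, 1532, 1125 and 1140 at day 2, and 2913, 2827, 2579 and 2468 at day 4. The day 4 values of KO-1 fell within the range of the WT peak of day 2 and those of KO-2 just under it. Its rise from day 2 to day 4 was 0.80 ± 0.07 (limma, adjusted p = 1.6e-08). Pcdh1, a protocadherin of cell adhesion, rose by 0.93 ± 0.09 over the same days (limma, adjusted p = 8.7e-08), from 546, 570.3, 340.2 and 325 normalized counts in KO at day 2 to 1384, 1521, 1123 and 1124 at day 4. WT had 1995 and 2193 at day 2 and 574 and 506 at day 4, so Pcdh1 in KO stayed under the WT peak and ended above WT.

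Pim2 (ENSMUSG00000031155), a serine/threonine kinase of growth and survival, had the largest change from day 0 to day 2 among the members in both genotypes on the log2 VST scale, which is compressed for genes with low counts. It went from 680.2 and 601 normalized counts at day 0 in WT to 13922 and 13435 at day 2 and 2421 and 2279 at day 4. In KO it had 1190, 1361, 1780 and 1795 at day 0, 6283, 6049, 6465 and 6061 at day 2, and 6731, 7691, 7443 and 6941 at day 4. The change in KO was 1.69 ± 0.08 from day 0 to day 2 (limma, adjusted p = 7.1e-13) and 0.19 from day 2 to day 4, which was not called. Each KO library was above WT at day 0 and day 4 and below it at day 2.

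**Figure D4:**
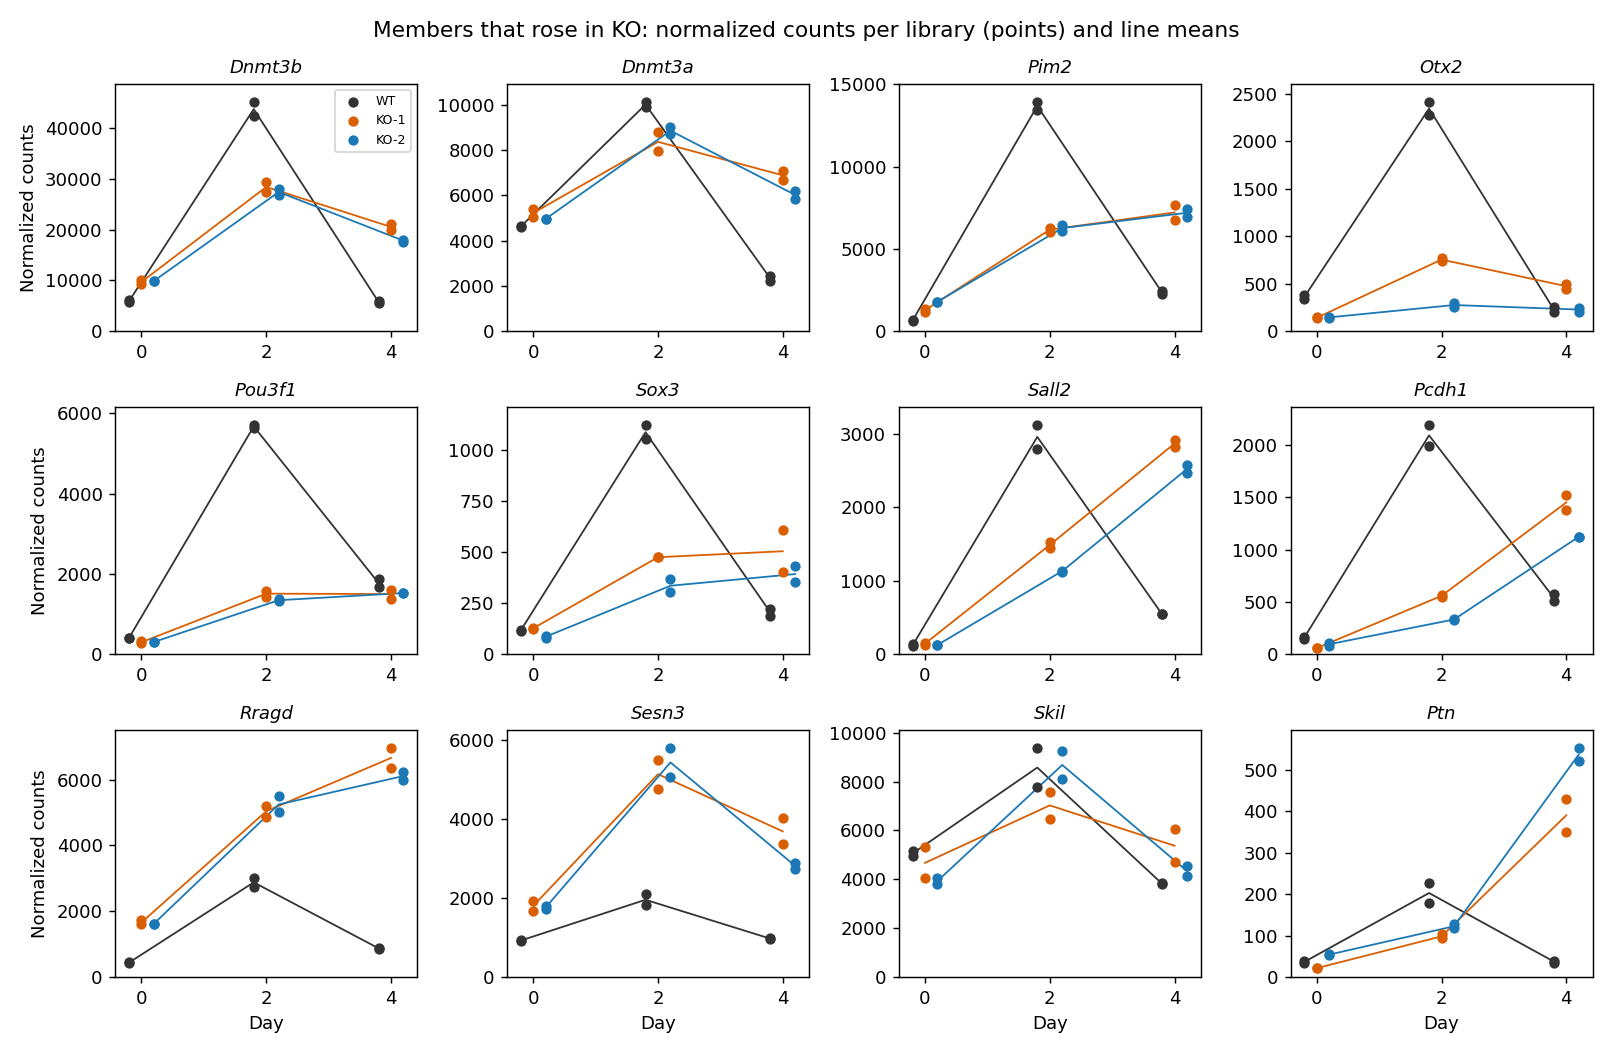
Normalized counts (y axis, linear, from 0) by day (x axis, lines set slightly apart) of 12 members that rose in KO between at least one pair of days, with points for libraries and lines through the mean of each line. WT peaks at day 2 in every panel by selection. In KO, all libraries of day 4 lie above those of day 2 for Sall2, Pcdh1, Ptn, Rragd and Pim2, while Sesn3 and Skil peak at day 2. Otx2 is higher in KO-1 than in KO-2 at day 2 and day 4.

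Rragd and Sesn3 were higher in KO than in WT at every day. Rragd (ENSMUSG00000028278), a Rag GTPase that links amino acids to mTORC1, had 420.2 and 466 normalized counts in the WT libraries of day 0, 2751 and 3011 at day 2, and 865 and 893 at day 4. In KO it had 1723, 1603, 1624 and 1629 at day 0, 4874, 5206, 5002 and 5490 at day 2, and 6959, 6357, 5980 and 6239 at day 4. All KO libraries were above WT at every day, and the KO rise from day 0 to day 2 was 1.36 ± 0.05 (limma, adjusted p = 6.4e-14). Sesn3 (ENSMUSG00000032009), a sestrin that restrains mTORC1, had 918 and 938 normalized counts in the WT libraries of day 0, 1817 and 2102 at day 2, and 986 and 966 at day 4. In KO it had 1938, 1671, 1801 and 1730 at day 0, 4773, 5498, 5069 and 5798 at day 2, and 4018, 3360, 2738 and 2897 at day 4. Sesn3 was the member with a day 2 peak in KO that exceeded the WT peak most at that day, by 1.20, and it rose by 1.30 ± 0.08 and then fell by 0.62 ± 0.08 (limma, adjusted p = 8e-11 and 6.8e-06). The call of its fall was lost in KO-1 alone and without replicate 2 of KO-2 at day 2 (−0.58) or either KO-2 replicate of day 4 (−0.55 and −0.58). Rragb, a second Rag GTPase, changed in KO by 0.42 from day 0 to day 2, under the fold threshold.

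Slc7a3, a cationic amino acid transporter, had 1490 and 1439 normalized counts in the WT libraries of day 0, 2873 and 2793 at day 2, and 539 and 501 at day 4. Its KO values ran from 3108 to 3574 at day 0, from 3104 to 3797 at day 2 and from 2902 to 3190 at day 4. The KO groups of the 3 days overlapped, and even the lowest KO library exceeded the WT peak. The change from day 0 to day 2 in KO was 0.06 ± 0.06 (limma, adjusted p = 0.49). Slc6a15, a transporter of neutral amino acids, likewise had 295 to 398 normalized counts over the day 0 and day 2 libraries of KO, against 83.0 and 86.3 in WT at day 0 and 440.0 and 402 at day 2. Phgdh, the first enzyme of serine synthesis, had 3342 and 3244 normalized counts in the WT libraries of day 0, 5803 and 5799 at day 2, and 1941 and 1961 at day 4. Its KO values ran from 2309 to 2584 at day 0 and from 2529 to 2751 at day 2, below WT at both days, and from 1898 to 2353 at day 4, where they overlapped WT. Its change of 0.06 ± 0.05 from day 0 to day 2 in KO was not called (limma, adjusted p = 0.41). Phgdh and Slc7a3 are the 2 members among 21 genes of the integrated stress response. Of these 21, 1 rose (Ddit4) and 8 fell from day 0 to day 2 in KO.

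Sfrp2, Enpp2 and Fgf15 encode secreted proteins, of which the first pair rose in KO. Sfrp2, a secreted Wnt antagonist and the 1 member among 32 Wnt pathway genes, had 225 and 210.0 normalized counts in the WT libraries of day 0, 932 and 819 at day 2, and 117 and 134 at day 4. In KO it ran from 529 to 608 at day 0, from 1144 to 1314 at day 2 and from 1026 to 1312 at day 4, above WT at every day. Its KO rise to day 2 was 0.70 ± 0.05 (limma, adjusted p = 1.1e-09). Of the Wnt list, 5 rose and 2 fell from day 0 to day 2 in KO, and 10 rose and 0 fell from day 2 to day 4, none of the 10 being Sfrp2. Enpp2, the secreted lysophospholipase autotaxin, had 3.3 to 16.0 normalized counts in KO at day 0, 109 to 302 at day 2 and 277 to 342 at day 4, while WT had 1398 and 1504 at day 2 and 155 and 136 at day 4. Its rise of 0.83 ± 0.08 in KO was called (limma, adjusted p = 1.4e-07), though not in KO-2 alone, with 0.57. Fgf15, a ligand and the 1 member among 29 FGF and ERK genes, had 329 and 269 normalized counts in the WT libraries of day 2 and 32.0 to 82.9 in KO, and its KO change of 0.14 was not called. Within that list 2 genes rose and 4 fell in KO from day 0 to day 2.

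Of the other high peaks, Emb, the membrane protein embigin, had 5962 and 5990.5 normalized counts in the WT libraries of day 2 and 3970 to 4215 in KO, and rose by 0.82 ± 0.05 in KO from day 0 to day 2 (limma, adjusted p = 4.4e-11). Pdzd4 had 5040 and 4812 in WT and 3416 to 3647 in KO at day 2, and Wt1, a zinc finger factor of kidney and gonad, had 650.2 and 551 against 96.9 to 122. Their KO changes from day 0 to day 2, 0.37 and 0.40, were under the fold threshold by limma, while limma-voom called Wt1, with 1.93.

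Ptn, the growth factor pleiotrophin, and Syt11, a synaptotagmin of vesicle traffic, rose in KO after day 2. Ptn had 228 and 178 normalized counts in the WT libraries of day 2 and 40.3 and 35.4 at day 4. In KO it had 93.6, 104, 128 and 118 at day 2 and 431, 351, 553 and 522 at day 4, so that each KO library of day 4 exceeded the WT peak. The rise was 0.80 ± 0.06 (limma, adjusted p = 1.4e-08), and that of Syt11 was 0.64 ± 0.06 (limma, adjusted p = 2.2e-07). The next highest changes from day 2 to day 4 in KO, those of Dtx4, an E3 ligase of the Deltex family, with 0.39, and Ttbk1, a tau tubulin kinase, with 0.37, were under the fold threshold. Skil, a repressor of Smad signalling and the 1 member among 21 measured Nodal and Activin genes, had 7771 and 9368 normalized counts in the WT libraries of day 2 and 6487, 7559, 8112 and 9241 in KO, where the groups overlapped. Skil rose by 0.78 ± 0.11 and fell by 0.63 ± 0.11 in KO (limma, adjusted p = 6.8e-06 and 0.00015), beside changes of 0.69 and −1.04 in WT. The rise in KO-1 alone, 0.54, was under the fold threshold. At day 4 all KO libraries (4140 to 6055 normalized counts) lay above both WT libraries (3854 and 3790). The call of its fall was lost in KO-1 alone (−0.36) and without replicate 2 at day 2 (−0.55) or replicate 1 at day 4 (−0.57) of KO-2. In the Nodal list 5 genes rose and 5 fell from day 0 to day 2 in KO.

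Not all members moved in KO between day 0 and day 2. In 23 of the 108 the change had an unadjusted p of 0.05 or more, which does not show that they were constant. The share of all genes at that p is not given, so this count is a description. Their names were read after these values were seen. They include Stx3, a SNARE protein of membrane fusion, Nle1, a factor of ribosome assembly, Plcg2, a phospholipase C, Spon1, a secreted matrix protein, and Bc1, a small brain cytoplasmic RNA. They also hold the linker histones H1f3 and H1f4, the pseudogene Tpt1-ps3 and 5 predicted genes. Stx3 had 812 and 789.8 normalized counts in the WT libraries of day 0, 2475 and 2355 at day 2, and 1265 and 1349 at day 4. In KO it ran from 853 to 931 at day 0, from 747 to 1047 at day 2 and from 793 to 1009 at day 4. All KO libraries of day 2 lay below the lower WT library of day 4.

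H1f3 had 205 and 301 normalized counts in the WT libraries of day 2 against 34.5 to 40.3 at day 0 and 6.0 to 11.4 at day 4. In KO all 12 libraries had between 12.8 and 45.3. H1f4 likewise had 165 and 126 in WT at day 2 and 33.2 to 39.0 in KO. Both are among 72 measured histone genes, of which 0 rose and 2 fell in KO from day 0 to day 2. Replication-dependent histone transcripts mostly lack a poly(A) tail, and the libraries were made from poly(A) RNA, whose part in these values was not tested. Spon1 reached 192 and 203 normalized counts in the WT libraries of day 2 and stayed between 4.9 and 44.0 in all KO libraries.

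Rn18s-rs5, Lars2 and AY036118 varied between replicates. Rn18s-rs5, a copy related to 18S rRNA, had 59461 and 78176 normalized counts in the WT libraries of day 2, but also 54346 and 35486 in the KO-1 replicates of day 0 and 69803 and 44020 in those of day 4. Lars2, the mitochondrial leucyl-tRNA synthetase, had 12548 and 5834 normalized counts in the same KO-1 replicates of day 0 and 11886 and 6183 in those of day 4, against 9379 and 13253 in WT at day 2. AY036118 had 3886 and 5143 in WT at day 2, 2061 and 2231 at day 0, and 3917, 2079, 2118 and 2290 in KO at day 0. For all 3 genes, single KO libraries of other days exceeded the lower WT library of day 2. Replicate pairs of KO-1 at day 0 and day 4 also differed most over all genes (chi-square per degree of freedom of 12.5 and 12.6, against 2.22 to 6.56 in the other groups). The 8 predicted genes among the members, the pseudogenes and H1f3 and H1f4 may have similar copies, which was not tested. Their counts are uncertain where reads fit more than one place.

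**Figure D5:**
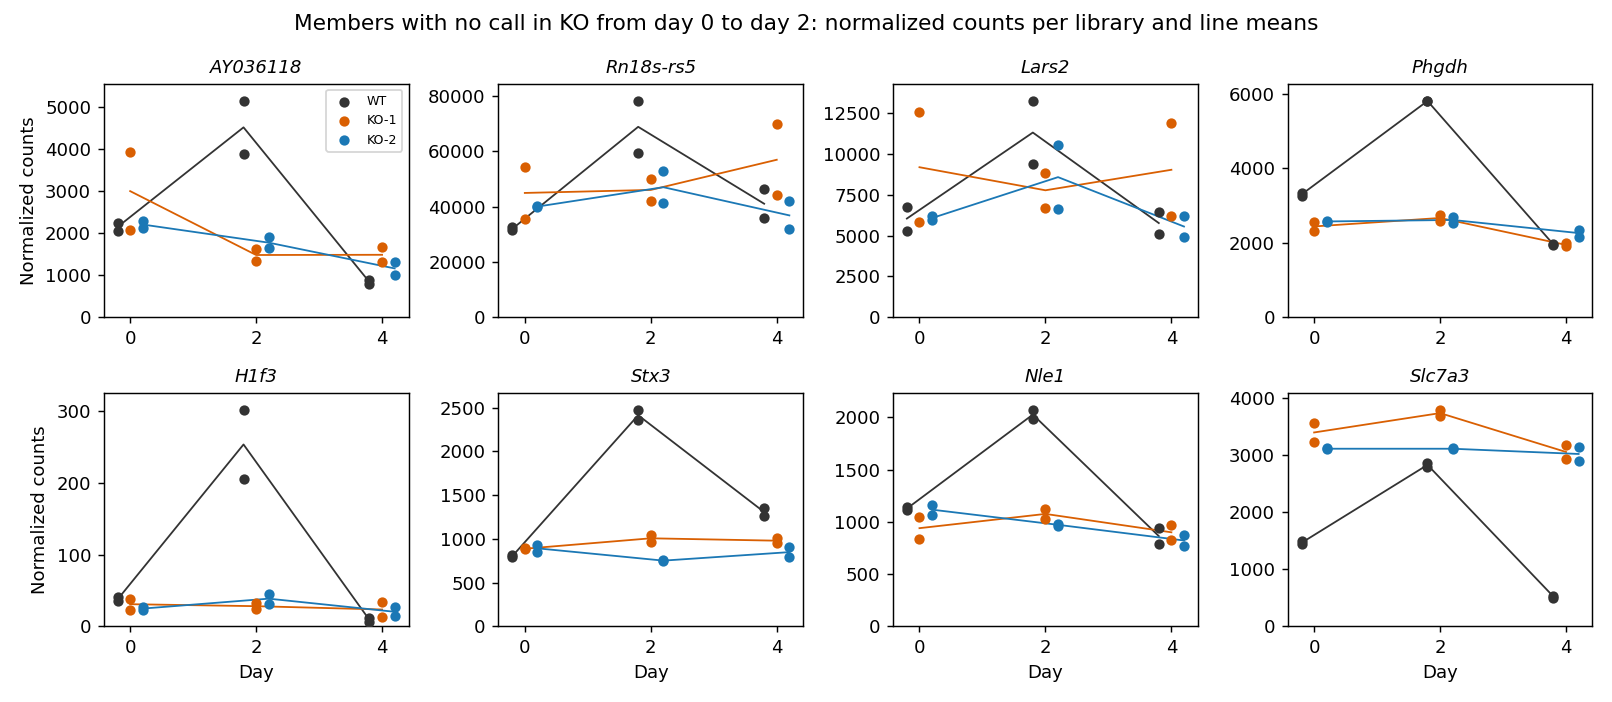
Normalized counts (y axis, linear, from 0) by day (x axis, lines set slightly apart) of 8 members without a call from day 0 to day 2 in KO, with points for libraries and lines through the mean of each line. The WT peak at day 2 is set by selection. KO libraries of Phgdh, H1f3, Stx3 and Nle1 stay below the WT peak at all days, and those of Slc7a3 stay at or above it. Replicates of Lars2 and Rn18s-rs5 lie far apart.

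Other members of fixed lists were few. Hspe1, a mitochondrial chaperonin, was 1 of 20 heat shock and chaperone genes, of which 0 rose and 1 fell from day 0 to day 2 in KO. Psma7 was 1 of 51 proteasome genes, with 0 rises and 0 falls in limma. Eef1a2, an elongation factor of neurons and muscle, was 1 of 87 translation factors, with 3 rises and 2 falls. Zfp930 was 1 of 459 zinc finger genes picked by symbol, with 4 and 6, a list that leaves out Sall2 and Wt1. Snrpn, from the imprinted domain that also holds Snhg14, was 1 of 22 measured imprinted genes, of which 7 rose and 0 fell. Snrpn had 2358 and 2122 normalized counts in the WT libraries of day 2 and 1383 to 1558 in KO, and rose in KO by 0.63 ± 0.07 (limma, adjusted p = 7.1e-07), a rise under the fold threshold in KO-2 alone (0.50) and without replicate 1 of KO-1 at day 0 (0.55). Snhg14 changed by 0.34 and was not called. Whether the libraries mark strand was not tested, and if they do not, reads of overlapping transcripts of opposite strand cannot be told apart. Slc7a3 and Slc6a15 were 2 of 317 solute carriers, with 6 rises and 8 falls, Snhg14 was 1 of 17 small nucleolar RNA hosts, with 1 rise and 0 falls by limma, and 8 of 4370 predicted genes were members, with 2 rises and 2 falls in that class. Lists with no member were BMP signalling, primitive streak, neuroectoderm, immediate early genes, Trp53 targets, glycolysis, cholesterol synthesis, oxidative stress, nucleolar biogenesis, epithelial genes, ATP synthase, Sm proteins, mitochondrial import, mitochondrially encoded genes, RNA polymerase II and the secretory pathway.

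Between the clones, few members passed both thresholds. An unadjusted p under 0.05 was reached by 25.9%, 37.0% and 56.5% of the members at day 0, 2 and 4, and by 14.8%, 12.3% and 25.3% of all genes. KO-1 against KO-2 gave 0 calls among the members at day 0 by limma (7 higher and 21 lower at an unadjusted p under 0.05, and 0 by limma-voom), beside 0.029% of all genes (0.159% by limma-voom). Without replicate 2 of KO-1 at day 0, AY036118 was called higher and Mif and Fth1 lower in KO-1, beside 0.261% of all genes. At day 2, where limma called Otx2, limma-voom called Otx2, Prom2, Enpp2 and Pcdh1 (background 0.232%), all higher in KO-1, and without a fold threshold limma had 5 higher and 1 lower (0.338%). At that day 27 members were higher and 13 lower in KO-1 at an unadjusted p under 0.05, among them Enpp2, with 0.46 ± 0.06 (limma, adjusted p = 0.00019), under the fold threshold. At day 4, 39 were higher and 22 lower at that p, including Cxcl12 with 0.49 ± 0.05 and Otx2 with 0.47 ± 0.06 (limma, adjusted p = 1.1e-05 and 8.8e-05), also under the fold threshold. The single call of day 4 by limma (background 0.251%) was Fth1, the ferritin heavy chain, which was 0.65 ± 0.11 lower in KO-1 (limma, adjusted p = 0.00127). By limma-voom 8 members were called at day 4 (2.23% of all genes). The KO values of Fth1 at day 4 were 4986, 5566, 8854 and 8383 normalized counts, without overlap between the clones. The call of Fth1 by limma was lost without replicate 1 of KO-1, replicate 1 of KO-2 or replicate 2 of KO-2 at day 4.

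The sequence features of the members were compared with those of all genes as a description. Of the 108, 106 (98.1%) were found in the GENCODE M21 annotation by identifier. Their longest transcripts had a median of 3769 bases and a GC content of 51.2%, against 2824 bases and 49.6% for all genes, and 8 (7.55%) lay on the X chromosome against 3.75%. In RefSeq, promoter windows of the 250 bases before the start were found for 72 members among 13448 genes. A gene counted for a motif if any of its windows held it. On both strands, 13 motifs were searched. The octamer ATGCAAAT is the sequence that POU factors such as Pou5f1 and Pou3f1 recognize. It was present for 5 members (6.94%) and for 1.66% of all genes with a window. TATAAA was present in 16.7% and 8.95%, GGGCGG in 63.9% and 58.8%, and CCAAT in 40.3% and 40.2%. The ETS motif CCGGAAG was present in 8.33% and 13.2%. The other motifs follow, again for members and then all genes with a window. AATACACA (FOXH1) had 1.39% and 0.706%, CTTTGAA (TCF/LEF) 4.17% and 4.18%, and the E-box CACGTG 9.72% and 9.36%. TGACGTCA (cAMP response) had 2.78% and 2.74%, AAGATGG (YY1) 5.56% and 4.92%, and ACGTGC (hypoxia) 6.94% and 7.64%. The NRF1 motif had 1.39% and 1.58%, and the serum response motif 0% and 0.0223%. Some of these letters overlap, such as CACGTG and ACGTGC. These are matches of letters and not sites at which binding was measured.

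The 5 promoters with the octamer are shown because 3 of them, those of Sfrp2, Sesn3 and Pim2, belong to members that rose in KO, and because Pim2 holds 2 copies. Each line gives the coding strand of the window around the match, 5′ to 3′, from GRCm38.p6, another build than the mm39 of the counts, with the octamer or its reverse complement in capitals.
Pim2, chrX:7878162-7878211, plus strand: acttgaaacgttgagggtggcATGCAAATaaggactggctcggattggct
Pim2, chrX:7878083-7878132, plus strand: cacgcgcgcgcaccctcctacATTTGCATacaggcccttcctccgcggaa
Sfrp2, chr3:83766253-83766302, plus strand: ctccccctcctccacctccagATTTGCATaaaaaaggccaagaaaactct
Sesn3, chr9:14276051-14276085, plus strand: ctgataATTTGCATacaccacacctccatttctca
Sinhcaf, chr6:148946471-148946515, minus strand: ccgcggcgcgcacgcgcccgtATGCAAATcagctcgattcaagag
Gm14139, chr2:150181549-150181598, plus strand: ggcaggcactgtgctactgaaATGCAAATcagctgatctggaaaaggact
The match lay 17 to 24 bases before the start in Sinhcaf and 40 to 47 in Sfrp2, and 116 to 123 and 195 to 202 bases before it in Pim2. In Gm14139 and Sesn3 it was farther off, at 178 to 185 and 237 to 244 bases. Of the 27 members with a window that rose in KO from day 0 to day 2, 3 (11.1%) held the octamer. Sinhcaf, a subunit of the Sin3 histone deacetylase complex, and Gm14139 were not among the risers. No window of another member held these letters, which says nothing about binding elsewhere in those genes.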

How the data were processed

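RNA-seq was made from WT, KO-1 and KO-2 E14 mESCs at day 0, 2 and 4, with 2 biological replicates per line and day (18 libraries). Per the labels, the authors trimmed reads with Trim Galore 0.6.7, aligned them to mm39 with STAR 2.7.11a, counted them on exons with featureCounts 2.0.6 and transformed the counts with DESeq2 1.42.0. The deposited values are on the log2 scale of its variance stabilizing transformation. They were inverted from the lowest value of the table, and 100% of the recovered counts were whole (within 0.01 counts, or 1e-06 of high counts).

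limma 3.58.1 (R 4.3.3) with a trended prior was fitted to the VST values of all 20703 genes in 6 groups of genotype and day, with 9 groups of line and day for the clones. A call needed a Benjamini-Hochberg adjusted p under 0.01 together with a log2 fold change over 0.58 in size. Fits were tested on simulated data. The genes named are the 12 with the highest peak in WT on the VST scale, up to 4 members of each gene list and those at the threshold. Added to these were the 6 at each end of the KO change from day 0 to day 2 and from day 2 to day 4. Predicted genes such as Gm13456 and Gm38393 were left out of these 6. The low end from day 0 to day 2 therefore holds Plcg2, with a change of 0.03. Others were picked after their values were seen, among them Dnmt3a, Foxd3, Rragb, Cxcl12, Rn18s-rs5, Lars2, Fth1, Mif, Gfra1, Aff3, Syt13, Ina, Car4, Sinhcaf and the predicted genes. The members and the lists were chosen with earlier results of these data known. Alternatives were limma-voom on the recovered counts, other thresholds and normalizations, single clones, a replicate block and each library left out. Transcript features came from GENCODE M21 and promoters from RefSeq, both on GRCm38. Figures used Python 3.11.15 and matplotlib 3.10.9.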

Additional observations from a re-analysis of the deposited data

Results flagged for a closer look

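In 6 of 126 groups of 4 KO libraries, one library stood far from the rest by Dixon's test, and chance gives about 1 in 20. Replicate 1 of KO-1 at day 0 was high for AY036118 (12.15 VST) and Skil (12.54) and low for Phgdh (11.52) and Hspe1 (11.63). Replicate 2 of KO-2 at day 2 was high for Slc6a15 (9.88), and replicate 2 of KO-1 at day 4 was low for Cadm1 (11.78).

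The change over time differed between KO and a WT replicate that had not chosen the genes. A smaller rise from day 0 to day 2 in KO was called by limma for 30 genes against WT replicate 2 and for 27 against WT replicate 1, where limma-voom called 12 and 17, and a smaller fall from day 2 to day 4 for 73 and 69 genes. Between the clones, Otx2 was higher in KO-1 at day 2 by 0.74 (limma, adjusted p = 5.39e-07), and Fth1 differed by −0.65 at day 4, being lower in KO-1 (limma, adjusted p = 0.00127), a call lost when replicate 1 of KO-1 or either replicate of KO-2 at day 4 was left out.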

How the results depend on the processing

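The 38 members that rose in KO from day 0 to day 2 numbered 35 to 39 under single clones, other normalizations, filters and priors, and with each KO library left out in turn they numbered 36 to 39. Without a fold threshold there were 72 (12% of all genes), and limma-voom called 62 (7.14%). For falls at day 2, KO-1 alone, limma-voom and the lack of a fold threshold each gave 1 in place of 0 (9.2% and 13.6% of all genes for the latter pair). From day 2 to day 4, limma-voom gave 10 rises and 12 falls (5.59% and 4.75% of all genes) and no fold threshold gave 12 and 21 (8.64% and 7.46%), with 1 to 5 falls when a library was left out. From day 0 to day 4, no fold threshold gave 65 rises and 5 falls (18.4% and 19.5% of all genes), and falls numbered 0 to 1 without single libraries. Calls between the clones at day 4 were 2 after quantile normalization (0.275% of all genes), 8 by limma-voom (2.23%), 16 without a fold threshold (5.16%) and 0 to 5 without single libraries. The smaller rise against the held-out WT replicate was called for fewer genes by limma-voom than by limma, in both sets. This comparison and those of the fall and of day 4 were added after seeing the data.

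The set itself depends on the scale. It held 326 genes at a threshold of 0.40 and 20 at 1.00, and 2683 on log2 normalized counts plus 1, which is not compressed at low counts and kept all 108. With one WT library left out it held 102 to 125. In the KO means the threshold was met by 7 members at 0.40, 0 at 1.00 and 11 on log2 counts, and by 0 to 3 without single libraries. The share of all genes under these settings is not given, so these counts are a description. In KO-2 alone 4 members met it, among 22 genes.

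Replicate differences correlated from −0.61 to 0.64 over the 36 pairs of groups, so the replicate numbers were not taken as pairs across days, and the replicate block left 38 rises and 0 falls to day 2. At day 2 all 3 pairs of lines correlated positively (0.48 for WT with KO-1, 0.37 for WT with KO-2, 0.43 for KO-1 with KO-2). A replicate block for day 2 alone, added after seeing the data, left Otx2 the 1 member called between the clones. Of 42 named genes, 7 changed the sign of a small, uncalled change at day 2: Bc1 (0.0055 in KO-2 alone, 0.0592 by limma-voom, −0.0891 to 0.0835 without single libraries), Stx3 (0.1174 in KO-1 alone, −0.075 to 0.0279), Nle1 (0.1323 in KO-1 alone, 0.0158 after median centring, −0.0638 to 0.0422), Plcg2 (−0.0125) and H1f3 (−0.0179) in KO-1 alone, and Slc7a3 (−0.0001) and Prom2 (−0.0932) in KO-2 alone. Among named genes called at day 2, the calls of Otx2, Enpp2 and Snrpn were lost in KO-2 alone and those of Skil and Slitrk5 in KO-1 alone. Calls were gained by limma-voom for Wt1 (1.93), Ptn (1.62), Eef1a2 (1.12), Dtx4 (0.80), Myrf (0.73) and AY036118 (−0.61), in KO-2 alone for Myrf (0.59) and in KO-1 alone for AY036118 (−0.75). No alternative varied depth.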
